A study of Homo sapiens with 6 samples.

Results

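The nuclear genes for the proteins of the mitochondrial ribosome were followed across 6 RNA-seq libraries of CAL27, an established cell line from an oral adenosquamous carcinoma. Members were the protein-coding rows of the expression table whose Ensembl identifier maps to a symbol made of MRPL or MRPS and a number, which gave 77 genes of 30178. The study compared stable CAL27 lines to ask how the transcriptome responds to MB21D2, a Mab-21 domain protein, in its wild-type form and in the mutant form Q311E. The vector line carried the empty vector, the wild-type line constitutively expressed wild-type MB21D2 and the Q311E line expressed the mutant, with 2 libraries per line, A and B. All lines were grown in DMEM with serum and antibiotics under G418 selection, and the labels describe the proteins as GFP fusions. Nothing in the labels tells a clone from a pool, or says that A and B were cultured apart. The p-values therefore rest on library-to-library spread alone, some or all of which may be technical.

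The mitochondrial ribosome reads the mRNAs of the mitochondrial genome, which encode subunits of the respiratory chain and of ATP synthase. Its rRNAs come from the mitochondrial genome, but every one of its proteins is encoded in the nucleus, made in the cytosol and imported. Some of these proteins have bacterial counterparts, and others are found only in mitochondria and wrap around a shortened RNA core.

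Recovered read totals ranged from 20645410 to 24147306 per library. MB21D2 itself stood at 8.31 and 7.15 FPKM (fragments scaled for gene length and library size) in the vector libraries, at 104 and 106 in the wild-type libraries and at 32.8 and 21.2 in the Q311E libraries. The mutant therefore was measured at a lower transcript level than the wild-type form, and mutation and level cannot be told apart in any comparison of these lines. Libraries A and B of Q311E lay further apart (SD of their log2 difference over 11481 tested genes 0.436) than those of vector (0.192) or wild type (0.145). Of 10 squamous epithelial markers, 5 were called lower in wild type than in vector, and 3 lower and 2 higher in Q311E. KRT5, EPCAM and SFN stayed above 100 FPKM in every library, KRT14 went from 762 and 697 in vector to below 3 in every MB21D2 library, and KRT6A from 109 and 104 to between 7.90 and 16.7. Among 16 fibroblast, leukocyte and endothelial markers found in the table, only COL1A1, COL1A2, CD14 and CDH5 passed the filter used below, and PTPRC, DCN and PECAM1 were at 0.317 FPKM or less in every library. CD14 and CDH5 were highest in Q311E B, at 18.8 and 35.2 FPKM, and their part in the results was not tested.

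All 77 members were detected in every library, with between 41 and 6067 recovered reads per gene and library. Of these, 50 belong to the large subunit, 26 to the small subunit, and MRPS36 is now known as a subunit of the alpha-ketoglutarate dehydrogenase complex instead. MRPS30 and MRPS18A carry small-subunit symbols but sit in the large subunit. By mean FPKM over the 6 libraries the highest were MRPS34 (158), MRPL41 (123), MRPL18 (89.3), MRPL14 (84.0) and MRPS26 (82.7). The lowest were MRPL38 (0.685), MRPL46 (1.43), MRPS18C (3.28), MRPL42 (4.02) and MRPS24 (4.20). MRPL38 fell under the filter of a mean of 1 FPKM and was not tested, with 0.769 and 0.648 FPKM in vector, 0.730 and 0.525 in wild type and 0.667 and 0.770 in Q311E. Genes of other names overlap 41.1% of its exon bases. The remaining 76 members were tested.

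Promoter windows of RefSeq (GRCh38.p14, from 250 bases before to 50 after the start) were matched to 68 members and searched on both strands for 3 motifs: the ETS-type core CCGGAAG, the NRF1 core GCATGCGC and the YY1 core AAGATGGCG. These are binding motifs of transcription factors long studied at nuclear genes for mitochondrial proteins. The ETS core was found in 28 of the 68 windows (41.2%), against 10.7% of all 27305 windows and 21.2% of 8434 windows of tested protein-coding genes. The YY1 core was found in 13 (19.1%, against 1.85% and 4.42%) and the NRF1 core in 6 (8.82%, against 3.27% and 5.83%). At least 1 of the 3 motifs was present for 19 of the 33 members called lower in Q311E against vector (57.6%) and for 18 of the 34 not called (52.9%). Of the 68 windows, 38 held at least 1 of the 3 (55.9%, against 14.6% of all windows and 28.6% of those of tested protein-coding genes). Among the members with the largest falls in Q311E against vector, the windows of MRPL12, MRPL14, MRPL19 and MRPL1 held none. Those of MRPS26, MRPS18C and MRPS24 each held at least 1 of the 3 motifs. MRPL21 was not matched to a window. All of these members were called lower. Stretches of 120 bases up to the RefSeq start are shown for 4 members called lower in Q311E and 2 not called. Each of these holds a motif, so they do not stand for all members. Motif matches on either strand are in capitals, and a match is a description, not a binding site. MRPL3 (chr3:131502972-131503091, minus strand), MRPS23 (chr17:57850045-57850164, minus) and MRPL20 (chr1:1407294-1407413, minus) were called lower and hold the ETS core. MRPL22 (chr5:154940953-154941072, plus) was called lower and holds the NRF1 core. MRPS18A (chr6:43687792-43687911, minus) and MRPL58 (chr17:75012550-75012669, plus) were not called and hold the ETS core.
MRPL3: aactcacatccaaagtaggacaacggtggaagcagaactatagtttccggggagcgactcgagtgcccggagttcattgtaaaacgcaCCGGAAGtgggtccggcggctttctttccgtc
MRPS23: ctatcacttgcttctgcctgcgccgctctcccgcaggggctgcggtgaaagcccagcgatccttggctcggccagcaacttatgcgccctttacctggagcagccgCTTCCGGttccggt
MRPL20: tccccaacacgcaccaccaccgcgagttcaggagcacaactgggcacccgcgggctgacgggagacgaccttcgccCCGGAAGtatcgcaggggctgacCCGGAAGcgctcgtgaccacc
MRPL22: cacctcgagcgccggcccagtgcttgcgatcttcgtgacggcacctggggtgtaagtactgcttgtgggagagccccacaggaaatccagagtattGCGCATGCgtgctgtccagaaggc
MRPS18A: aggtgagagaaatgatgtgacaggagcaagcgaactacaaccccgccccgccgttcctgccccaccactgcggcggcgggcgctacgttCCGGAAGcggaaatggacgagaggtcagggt
MRPL58: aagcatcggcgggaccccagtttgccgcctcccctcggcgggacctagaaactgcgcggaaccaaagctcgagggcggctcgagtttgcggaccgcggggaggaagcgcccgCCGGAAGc

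In the Q311E line, 38 of the 76 tested members were called lower than in the vector line and 0 higher, by limma on log2(FPKM + 1) at an adjusted p under 0.05. Over all tested genes 9.28% were called lower and 8.67% higher. At an unadjusted p under 0.05, 1 member was higher and 48 were lower. No share of all tested genes was computed at that threshold, here or for the unadjusted counts below. A fit by voom on recovered reads called 0 members higher and 36 lower, against 8.98% and 9.17% of all genes in that fit. The median log2 difference of the members was -0.36, against 0.00 for all tested genes, and 69 of 76 differences were negative. Summed over the 77 members, FPKM was 2694 and 2701 in vector, 2451 and 2470 in wild type, and 2077 and 2082 in Q311E. The groups thus did not overlap in this sum, and the library medians of the members against the vector mean were -0.34 in both Q311E libraries, with 71 members below the vector mean in A and 64 in B. Both Q311E libraries lay under both vector libraries for 59 members, as they did for 30.0% of all tested genes. In bulk RNA a change in the share of cells that express a gene and a change of RNA per cell cannot be told apart.

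**Figure D1:**
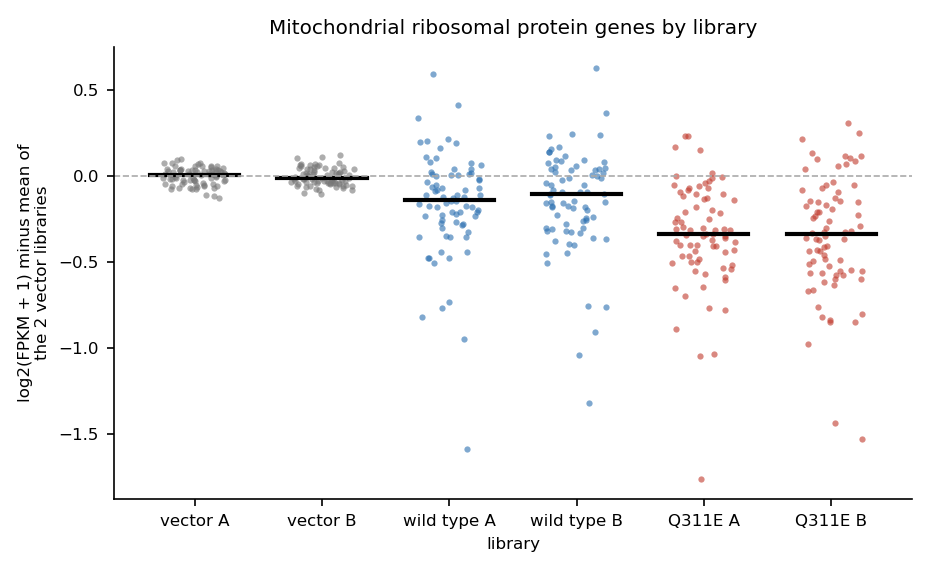
Each point is 1 of the 76 tested members in 1 library, as log2(FPKM + 1) minus the mean of the 2 vector libraries (vertical axis), and black bars are medians over members. The medians are -0.34 in both Q311E libraries and -0.14 and -0.10 in the wild-type libraries.

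The count of 38 depends on the libraries that set the spread. The shares of all genes given here are at an adjusted p, so member counts at an unadjusted p cannot be set against them. Leaving out vector A or vector B gave 0 members called lower by limma (37 and 38 at an unadjusted p under 0.05), where 0.0174% of all tested genes were called lower. Leaving out wild type A or B gave 5, against 1.09% of all genes. Leaving out Q311E A or B gave 50 or 49, against 26.2% or 19.0% of all genes. Weighting each line by its own spread gave 16 lower (21.1%, against 3.67% of all tested genes), a fit of these 2 lines alone gave 5 (6.58%, against 1.05%), TPM scaling gave 18 (23.7%, against 5.50%) and no filter on low values gave 19 of 77 (24.7%, against 1.89%). Leaving out any 1 of the vector or wild-type libraries also ended the call of 22 of the 27 member results named in the comparisons, without changing a direction. The members' median stayed between -0.40 and -0.26 under all alternatives run.

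**Figure D2:**
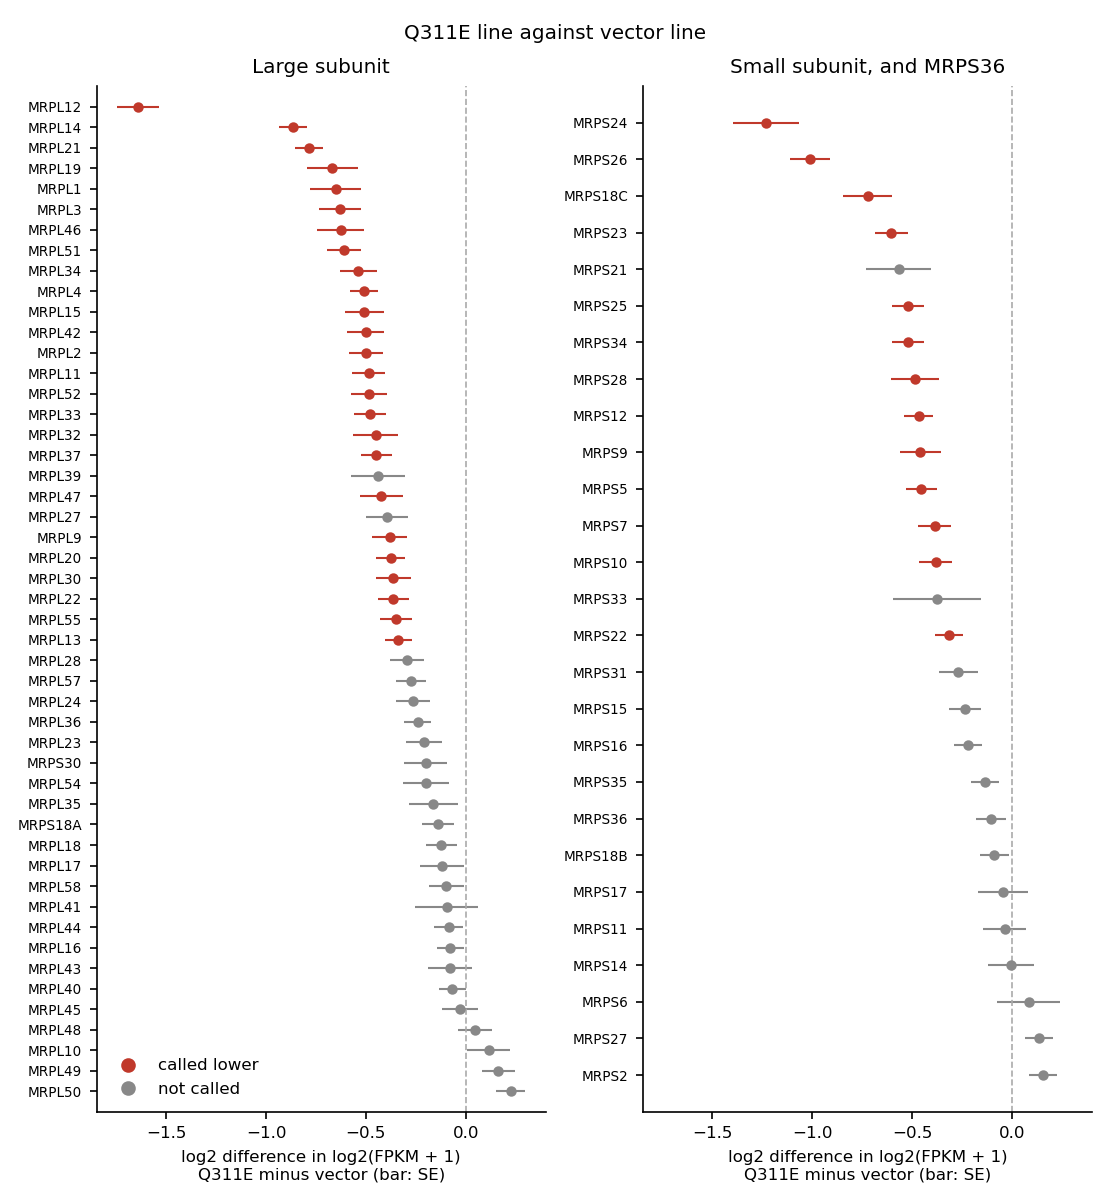
Log2 difference (horizontal axis, Q311E minus vector, bars are SE) for each tested member, large subunit on the left, small subunit and MRPS36 on the right, ordered by size. Red points are the 38 called lower, grey points were not called, and MRPL12, MRPS24 and MRPS26 lie below -1.

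MRPL12 encodes the stalk protein that recruits translation factors to the large subunit, and it showed the largest fall of all members in Q311E against vector. Its FPKM was 51.6 and 48.0 in vector, 25.3 and 23.7 in wild type, and 14.0 and 16.6 in Q311E. The 3 lines did not overlap, with vector highest and Q311E lowest. The log2 difference of Q311E from vector was -1.64 ± 0.10 (SE, adjusted p = 0.00349). GENCODE 29 places MRPL12 on chromosome 17, bases 81703357 to 81707526 of GRCh38, and the gene AC139530.2 on the same strand overlaps 68.2% of its exon bases, so reads of the 2 cannot be separated. The other proteins of the stalk and its base, chosen after their values were seen, were MRPL11, which fell (log2 difference -0.49 ± 0.08), and MRPL10, which was not called (0.11 ± 0.11).

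MRPS26, a small-subunit protein without a bacterial counterpart, stood at 109 and 108 FPKM in vector, 93.0 and 79.3 in wild type and 52.2 and 54.7 in Q311E. Q311E libraries lay well under the rest, and the difference from vector was -1.01 ± 0.10 (adjusted p = 0.00649). Wild type against vector was not called (-0.33 ± 0.10). MRPL14 lies at the face where the subunits join and is the docking site of the silencing factor MALSU1. It was at 116 and 120 FPKM in vector, 69.1 and 69.5 in wild type, and 63.5 and 65.3 in Q311E. Here both MB21D2 lines were low, with a difference of Q311E from vector of -0.87 ± 0.07 (adjusted p = 0.00523).

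MRPS24, the mitochondrial form of the small-subunit head protein uS3, was at 7.64 and 7.73 FPKM in vector, 1.90 and 2.48 in wild type, and 3.24 and 2.22 in Q311E. The wild-type and Q311E libraries overlapped, and both lay below vector (Q311E against vector -1.23 ± 0.17, adjusted p = 0.012). The read-through gene URGCP-MRPS24 shares 23.2% of its exon bases on the same strand. MRPL21, a protein of the bacterial core set, was at 34.8 and 37.1 FPKM in vector, 31.7 and 31.8 in wild type and 20.7 and 20.2 in Q311E (-0.78 ± 0.07, adjusted p = 0.00562). The 3 lines did not overlap, with Q311E lowest and wild type just under vector, where the difference was not called (-0.17 ± 0.07).

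MRPS18C, MRPL19 and MRPL1 completed the members with the 8 largest falls. MRPS18C was at 4.62 and 4.18 FPKM in vector, 2.98 and 3.32 in wild type and 2.56 and 2.01 in Q311E (-0.72 ± 0.12, adjusted p = 0.019). Unlike its paralogs MRPS18A (-0.14 ± 0.08) and MRPS18B (-0.09 ± 0.07), it was called; the difference between paralogs was not tested. MRPL19 was at 12.0 and 11.0 FPKM in vector, 10.6 and 10.6 in wild type and 7.84 and 5.996 in Q311E (-0.67 ± 0.13). MRPL1, which forms the mobile stalk at the site where spent tRNA leaves, was at 12.2 and 11.5 in vector, 11.9 and 12.5 in wild type and 8.20 and 6.28 in Q311E (-0.65 ± 0.13). The Q311E libraries were lowest for both genes. Wild type overlapped vector for MRPL1 and lay under it for MRPL19 without being called (-0.11 ± 0.13).

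The lower calls were spread over the whole particle. In the large subunit 25 of 49 tested members were called lower (median -0.36) and in the small subunit 13 of 26 (median -0.38). Over all tested genes 9.28% were called lower, and the median was 0.00. Members with a bacterial homolog were called lower in 27 of 45 cases (median -0.39), and mitochondria-specific members in 11 of 30 (median -0.23); the difference between these classes was not tested. Around the exit of the peptide tunnel, a grouping made after the values were seen, MRPL22 (-0.36 ± 0.08) and MRPL47 (-0.42 ± 0.11) were called lower, while MRPL23 (-0.21 ± 0.09), MRPL24 (-0.26 ± 0.09) and the membrane-contact protein MRPL45 (-0.03 ± 0.09) were not. MRPS12, at the decoding centre, was called lower, at 43.9 and 41.9 FPKM in vector and 30.1 and 31.4 in Q311E (-0.47 ± 0.07). MRPL58, a peptidyl-tRNA hydrolase built into the large subunit, was not called, at 29.5 and 30.8 FPKM in vector and 30.0 and 26.3 in Q311E. Of the abundant members MRPS34 was called lower (182 and 188 FPKM in vector, 126 and 131 in Q311E), whereas MRPL41 (118 and 126 against 98.1 and 132) and MRPL18 (92.4 and 90.7 against 86.7 and 81.3) were not.

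The calls were spread over levels and lengths. Members called lower in Q311E against vector numbered 14 of 25 in the lowest group by mean FPKM, 12 of 25 in the middle group and 12 of 26 in the highest. Across the 76 members, which are not independent replicates, Spearman's rho of the difference with exon length was 0.07. Members whose exons overlap another gene were called lower in 26 of 39 cases (median -0.42), and members free of overlap in 12 of 37 (32.4%, median -0.26), beside 9.28% of all tested genes. Among 14 tested members with overlap on the same strand, 10 were called lower. The part of overlapping genes in these values was not tested.

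Against the wild-type line, 26 members were lower and 1 higher in Q311E, where 10.1% of all tested genes were called lower and 17.5% higher. The median difference of the members was -0.20, against 0.05 for all tested genes. It was -0.20 in each Q311E library taken alone, with 62 members below the wild-type mean in A and 57 in B. This comparison and that with vector use the same Q311E libraries, so they are not independent. In the small subunit 12 of 26 members were called lower and in the large subunit 14 of 49. Of all members, 21 were called lower against both other lines, a joint count for which no share of all tested genes was computed.

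MRPL3, a large-subunit core protein that reaches toward the peptidyl transferase centre, had the largest fall against wild type. It was at 89.7 and 85.2 FPKM in vector, 98.0 and 97.6 in wild type, and 61.4 and 51.3 in Q311E. Q311E was lowest and wild type highest with no overlap. The log2 difference of Q311E was -0.79 ± 0.11 (adjusted p = 0.00962) from wild type and -0.63 ± 0.11 (adjusted p = 0.019) from vector. Wild type against vector was not called (0.16 ± 0.11). The further named falls against wild type were -0.69 for MRPL1, -0.67 for MRPS26, -0.65 for MRPL12, -0.61 for MRPL21, -0.56 for MRPL19 and -0.55 for MRPS25. MRPS25, a mitochondria-specific small-subunit protein, was level between vector (12.5 and 12.0 FPKM) and wild type (12.3 and 12.7) and lower in Q311E (8.58 and 7.87). MRPS9, the counterpart of a bacterial small-subunit head protein, was at 33.5 and 32.3 FPKM in wild type and 23.9 and 20.7 in Q311E (-0.54 ± 0.10). Leaving out vector A or vector B gave 4 members lower, against 2.26% or 2.28% of all genes. Leaving out wild type A or B gave 0 (19 each at an unadjusted p under 0.05), and 0 among all genes. Leaving out Q311E A or B gave 38 or 33, against 27.8% or 16.0% of all genes. Median scaling gave 40 lower and 1 higher, with 19.4% and 13.0% of all genes, and a fit of these 2 lines alone gave 4, against 2.25% of all genes.

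**Figure D3:**
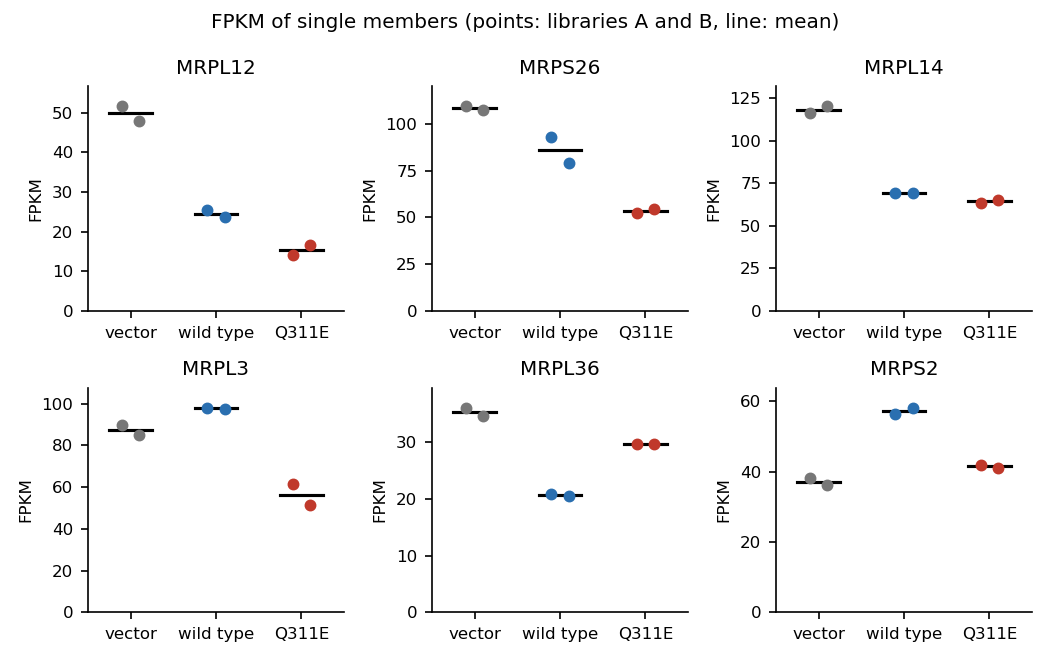
FPKM (vertical axis from 0) of 6 members in the 3 lines, points are libraries A and B and lines are means. MRPL12 and MRPS26 descend from vector through wild type to Q311E, though wild type against vector was not called for MRPS26. MRPL14 is low in both MB21D2 lines, MRPL3 is low in Q311E, MRPL36 is low in wild type and MRPS2 is high in wild type.

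In the wild-type line 9 members were lower and 2 higher than in vector, where 8.76% of all tested genes were called lower and 3.54% higher, so the share of 11.8% lower was near that of all genes. The median was -0.12 against -0.05 for all genes. It became 0.03, against 0.02 for all genes, once the trend with exon length was removed. Leaving out vector A, vector B, wild type A or wild type B gave 0 lower and 0 higher by limma (lower at an unadjusted p under 0.05 were 13, 10, 10 and 11), with at most 0.0697% of all genes lower. Leaving out Q311E A or B gave 34 lower, against 28.4% of all genes. The fit of these 2 lines alone gave 34 lower and 8 higher, where 28.4% and 17.5% of all genes were called, and median scaling gave 5 lower and 2 higher, where 5.95% and 5.44% were called. Vector libraries are shared with the comparison of Q311E against vector. In both comparisons 6 members were called lower, and no share of all tested genes was computed for this joint count. A further 32 were lower in Q311E and not called in wild type, which does not show that the lines differ for them.

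MRPS24 (-1.45 ± 0.17), MRPL12 (-0.99 ± 0.10) and MRPL14 (-0.76 ± 0.07) were among the falls in wild type, with the values given above. MRPS21, a small core protein of the small subunit, was at 35.0 and 41.7 FPKM in vector, 21.2 and 19.9 in wild type and 21.9 and 29.6 in Q311E. It was called lower in wild type (-0.86 ± 0.16, adjusted p = 0.0319) and not in Q311E (-0.57 ± 0.16, adjusted p = 0.0694). MRPL36 was at 36.0 and 34.5 FPKM in vector, 20.9 and 20.5 in wild type and 29.6 and 29.7 in Q311E. Wild type alone was called low (-0.74 ± 0.07, adjusted p = 0.0084), and MRPL36 was the 1 member higher in Q311E than in wild type (0.50 ± 0.07, adjusted p = 0.00999). MRPL34 (-0.49), MRPL51 (-0.40), MRPL55 (-0.37) and MRPS36 (-0.36) made up the rest of the falls, and of these MRPS36 was at 18.0 and 18.5 FPKM in vector, 14.1 and 13.8 in wild type and 17.5 and 16.3 in Q311E.

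The 2 members higher in wild type were MRPS2 and MRPL50, both on chromosome 9. MRPS2, the counterpart of a bacterial small-subunit protein, was at 38.1 and 36.1 FPKM in vector, 56.4 and 58.1 in wild type and 42.0 and 40.9 in Q311E. Wild type was highest (0.61 ± 0.07 against vector, adjusted p = 0.0122), and Q311E lay below it (-0.46 ± 0.07, adjusted p = 0.0139). MRPL50 was at 11.5 and 10.8 FPKM in vector, 15.2 and 14.7 in wild type and 13.3 and 13.1 in Q311E (wild type against vector 0.39 ± 0.07, adjusted p = 0.0322).

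Some of these genes moved with their chromosomal surroundings. The 62 other tested genes within 2 Mb of MRPS2 had a median log2 difference from vector of 0.50 in wild type and 0.48 in Q311E, and the 8 around MRPL50 had 0.50 and 0.44. MRPL41, also on chromosome 9, had neighbours at 0.51 and 0.47 and itself was not called (0.10 in wild type, -0.10 in Q311E). Around MRPL36 on chromosome 5, 20 genes had a median of -0.44 in wild type and -0.02 in Q311E. The 10 around MRPS30, also on chromosome 5, had -0.34 and 0.025, and MRPS30 itself was not called. Around MRPS26 on chromosome 20, 32 genes had a median of -0.23 in wild type and -0.55 in Q311E. Around MRPL12 and MRPS24 the medians lay between -0.11 and 0 in both comparisons with vector. Without the members whose neighbours had a median beyond 0.3 in size, 37 members remained called lower in Q311E against vector, 25 against wild type, and 8 lower and 0 higher in wild type against vector by limma. The part of the surroundings in the members' values was not tested.

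**Figure D4:**
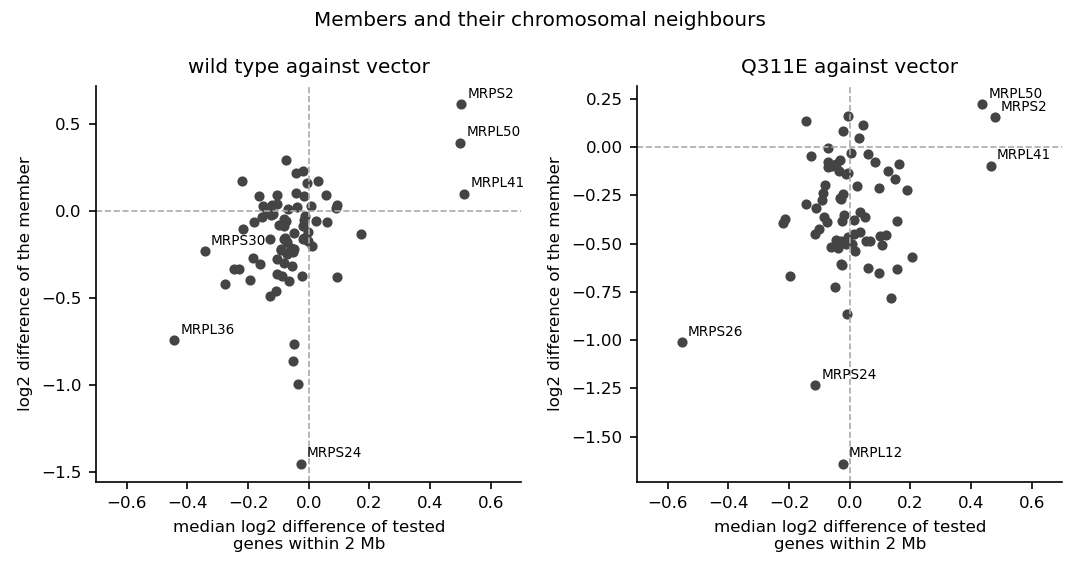
Each point is a tested member, with the median log2 difference of other tested genes within 2 Mb on the horizontal axis and its own log2 difference on the vertical axis, for wild type (left) and Q311E (right) against vector. MRPS2, MRPL50 and MRPL41 sit beside raised neighbours in both panels, MRPL36 and MRPS30 beside lowered neighbours in wild type and MRPS26 in Q311E.

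Mitoribosomal proteins that bear other names were listed separately. Of 5 tested, 3 were lower in Q311E than in vector: AURKAIP1 (118 and 122 FPKM in vector, 83.2 and 77.4 in Q311E, -0.58 ± 0.08), GADD45GIP1 (-0.51 ± 0.09) and CHCHD1 (-0.47 ± 0.10). Of 24 factors that build the particle, 5 were lower (20.8%) and 0 higher (1 higher at an unadjusted p under 0.05, 0 by voom). Over all tested genes 9.28% were called lower and 8.67% higher against vector. METTL17, needed for small-subunit maturation, was at 63.3 and 68.7 FPKM in vector, 51.1 and 51.8 in wild type and 33.4 and 34.2 in Q311E (-0.94 ± 0.08, adjusted p = 0.00514). NGRN, a regulator of the 16S rRNA, had a difference of -0.72 ± 0.09, and MRM1, an rRNA methyltransferase, of -0.71 ± 0.09. Against wild type, 8 assembly factors were lower in Q311E and 1, METTL15, was higher, where 10.1% and 17.5% of all tested genes were called.

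Translation factors of mitochondria were mixed. SLIRP, an RNA-binding partner of LRPPRC that stabilises mitochondrial mRNAs, fell from 29.3 and 38.0 FPKM in vector to 17.6 and 14.5 in Q311E (-1.02 ± 0.15, adjusted p = 0.0143), and the elongation factor TUFM from 191 and 193 to 133 and 139 (-0.49 ± 0.08, adjusted p = 0.0167). The recycling factor MRRF rose (3.21 and 3.10 FPKM in vector, 5.42 and 5.30 in wild type, 5.10 and 6.23 in Q311E). Of 16 tested, 3 were lower (18.75%) and 1 was higher (6.25%) against vector, where 9.28% and 8.67% of all tested genes were called. Against wild type 5 were lower (31.25%) and 1 was higher (6.25%), where 10.1% and 17.5% of all tested genes were called. The elongation factor GFM1 was lowest there (-0.79 ± 0.12). Among mitochondrial tRNA synthetases 4 of 19 were lower against vector, NARS2 (-0.57 ± 0.08) among them. The mitochondrial RNA polymerase POLRMT was lower (-0.39 ± 0.08), as was TEFM, for 2 of 5 genes of mitochondrial transcription. Of 8 tested nuclear regulators, MYC (44.3 and 39.5 FPKM in vector, 45.2 and 44.5 in wild type, 33.1 and 29.5 in Q311E, -0.41 ± 0.10) and the coactivator PPARGC1B (-0.53 ± 0.11) were lower in Q311E than in vector; NRF1 was at -0.09 ± 0.08 and not called.

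The transcripts that mitoribosomes translate were not called. None of the 13 mitochondrially encoded mRNAs was called in any comparison by limma (0 also at an unadjusted p under 0.05 and by voom). Their summed FPKM varied within lines, at 12620 and 24561 in vector, 21674 and 20197 in wild type and 15985 and 25049 in Q311E, so a change was not detectable at this spread. The rRNAs of the mitoribosome were higher by value in Q311E, with a summed FPKM of 529 and 779 in vector, 709 and 736 in wild type and 924 and 1654 in Q311E. Neither passed the test: MT-RNR2 had a difference of 1.34 ± 0.34 from vector (adjusted p = 0.0504, called higher by voom) and MT-RNR1 of 0.45 ± 0.29 (adjusted p = 0.310). Of 76 tested nuclear subunits of the respiratory chain, 18 were called lower in wild type against vector (23.7%, median -0.32, against 8.76% of all tested genes) and 25 in Q311E (32.9%, median -0.30, against 9.28%), and the other 58 and 51 were not called. In Q311E against wild type 5 were lower (6.58%) and 1 higher (1.32%), below the 10.1% and 17.5% of all tested genes. The median of these subunits was 0.00 there, where the mitoribosomal median was -0.20 and that of all tested genes 0.05. Cytosolic ribosomal proteins numbered 6 lower (7.5%) and 1 higher (1.25%) of 80 in Q311E against vector (median -0.15). Over all tested genes 9.28% and 8.67% were called. Their library medians were -0.38 in Q311E A and 0.05 in Q311E B, whereas those of the mitoribosomal members were -0.34 in each. The nuclear respiratory chain subunits were also low in both Q311E libraries, at -0.43 in A and -0.23 in B.

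**Figure D5:**
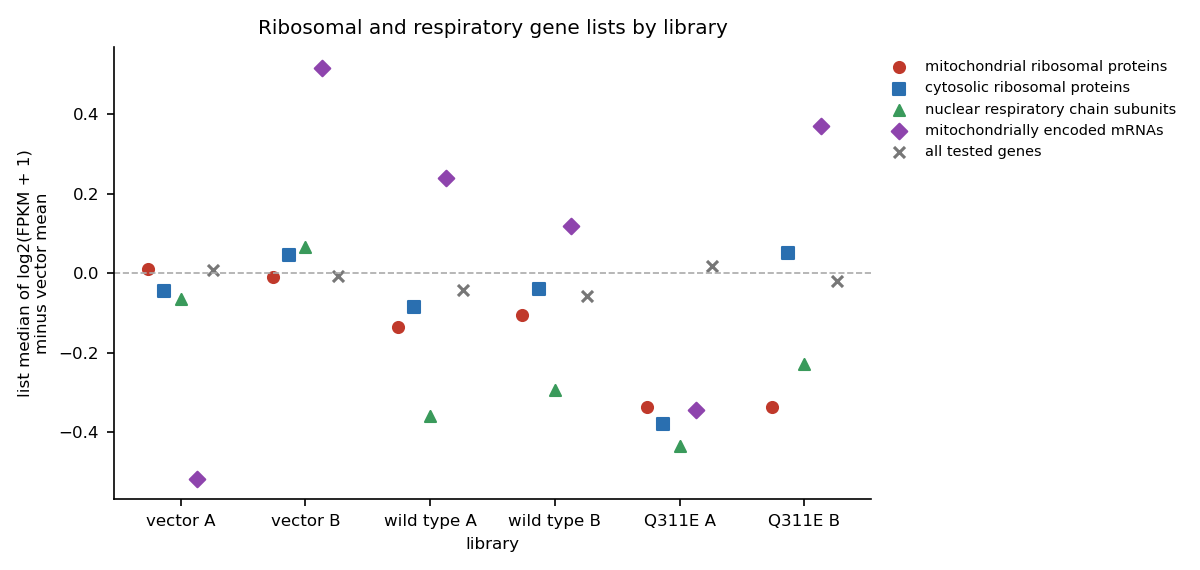
Median over each gene list of log2(FPKM + 1) minus the vector mean (vertical axis) in each library. Mitoribosomal members are at -0.34 in both Q311E libraries and nuclear respiratory chain subunits at -0.43 and -0.23. Cytosolic ribosomal proteins are at -0.38 and 0.05, and mitochondrially encoded mRNAs at -0.34 and 0.37.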

How the data were processed

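The deposited table holds FPKM values per Ensembl gene for 6 libraries, made by the authors; the submitters' processing notes name CASAVA and the builds mm8 and mm9, with no role given. Aligner, counting and annotation are not stated in the labels or header, nor is the handling of reads shared with pseudogenes or overlapping genes. Symbols and gene models came from GENCODE 29. Whole reads were recovered from the FPKM steps for 99.51% of gene IDs (tolerance 0.001 reads), at the GENCODE length for 35 members and at a fitted length for 42. Differences were tested two-sided on log2(FPKM + 1) by limma (version 3.58.1, run in R 4.3.3) with a variance trend, 1 fit of the 3 lines and Benjamini-Hochberg adjustment over the 11481 genes with a mean of at least 1 FPKM. The log2 differences understate changes of low genes. Alternatives covered pseudocount, filter, scaling, length trend, spread, replicate block, voom and left-out libraries; 2 were added after seeing the data. Members and lists were chosen with earlier results of these data known. Named members were those with the 8 largest called, non-overlapping rises and falls per comparison, the 5 highest and 5 lowest by level, those whose role departs from the symbol, the MRPS18 paralogs, and up to 4 called genes per list. MRPS12, MRPL58, the further stalk and tunnel-exit proteins and the promoter examples MRPL20, MRPL22 and MRPS23 were among those outside these rules. Promoter windows were from RefSeq.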

Additional observations from a re-analysis of the deposited data

Results flagged for a closer look

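Of the 27 members called between Q311E and wild type, 3 were also called in wild type against vector. For these, a called change in 1 line differed from that in the other by the limma test of Q311E against wild type. Both comparisons use the same wild-type libraries, so the calls are not independent. No share of all tested genes was computed for this joint count. MRPL12 changed by -0.99 in wild type and by -1.64 in Q311E, a difference of -0.65. MRPL36 changed by -0.74 in wild type and by -0.24 in Q311E, a difference of 0.50. MRPS2 changed by 0.61 in wild type and by 0.16 in Q311E, a difference of -0.46. The differences of MRPL12 and MRPL36 had the same direction under every alternative run, and that of MRPS2 was not followed through the alternatives. The calls did not hold when wild type A or wild type B was left out.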

How the results depend on the processing

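All 27 named member results kept their direction under every alternative run, and 13 were called under each of the 10 alternatives that leave out no library. Counts follow in the order wild type against vector, Q311E against vector, Q311E against wild type, where the values reported were 9, 38 and 26 lower, with 8.76%, 9.28% and 10.1% of all tested genes. Without a filter 4, 19 and 13 were lower (all genes 0.954%, 1.89% and 1.53%) and 1 was higher in wild type against vector. TPM scaling gave 6, 18 and 13 lower (6.54%, 5.50% and 6.19%) and 1 higher in wild type. Its medians were -0.073 in wild type against vector (all genes -0.007) and -0.24 in Q311E against wild type (all genes 0.0191). Median scaling gave 5, 40 and 40 lower (5.95%, 11.1% and 19.4%), with medians of -0.043, -0.40 and -0.31. The medians of all genes were then 0.0176, -0.0305 and -0.0537. Removing the length trend gave 5, 32 and 46 lower (5.67%, 10.4% and 18.8%) and 0 higher in Q311E against wild type (1 at an unadjusted p under 0.05). In the first and last of these comparisons the medians were then 0.025 and -0.36, beside 0.0208 and -0.0538 for all genes. Fits of only the groups compared gave 34, 5 and 4 lower (28.4%, 1.05% and 2.25%), and spread weighted by group gave 35, 16 and 12 (29.6%, 3.67% and 6.24%), with 8 higher in wild type against vector in both. A filter at a mean FPKM of 5 gave medians of -0.10 and -0.34 against vector (all genes -0.0365 and -0.0514) and 2 higher in Q311E against wild type. The median in Q311E against vector was -0.39 with a pseudocount of 0.1 and -0.39 with voom. Members free of exonic overlap, 37 in number, gave 5, 12 and 12 lower, 1 higher in wild type against vector, and medians of -0.083, -0.26 and -0.17. Without members beside shifted neighbours 0 were higher in wild type against vector and 0 in Q311E against wild type. The cause of these shifts was not tested.

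Leaving out 1 library at a time gave 0 to 34, 0 to 50 and 0 to 38 lower, while the share of all genes ran from 0.0436% to 28.4%, from 0.0174% to 26.2% and from 0% to 27.8%. Higher were 0 to 7, 0 to 3 and 0 to 7, and the median of Q311E against vector ranged from -0.36 to -0.32. Each left-out vector or wild-type library ended the call of 22 of the 27 named results and each left-out Q311E library of 0, while no filter ended 11 and the other alternatives between 0 and 7. A line left with 1 library was assumed to vary like the other lines. Adding the letters A and B as a replicate block gave 7, 32 and 21 lower (8.06%, 8.71% and 10.9% of all genes). The B minus A differences correlated at -0.03 between vector and wild type, 0.39 between vector and Q311E and -0.01 between wild type and Q311E. The letters thus did not pair wild type with the other lines. Whether vector and Q311E shared a difference between A and B was not tested. With 2 libraries per line and a wide spread in Q311E, small differences could not be told from the spread.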
